A study of Mus musculus with 11 samples.

Results

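The genes described here are a set of 39 mouse genes of DNA replication and S phase, grouped here by function: origin licensing, the MCM helicase and its activators, DNA polymerases and primase, the sliding clamp and its loader, Okazaki fragment maturation, deoxynucleotide supply, replication-coupled chromatin and S phase entry. Of the 39 genes, 38 had a row among the 18193 genes of the expression table, taken from whichever of its single-symbol probe sets was brightest on average across the arrays (11 in all). Chaf1a is represented here by its promoter sequence alone and has no expression value. Expression was measured on Affymetrix arrays hybridised with total RNA of splenic and lymph node CD4 T cells of animals 6 to 8 weeks old, and each value is a log2 intensity. The cells were purified by positive selection for CD4 and sorted on GFP, with 1 array per sample.

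The 3 groups were GFPKO (3 arrays), Treg (5 arrays) and TN (3 arrays). GFPKO cells were GFP-positive CD4 T cells of Foxp3GFPKO/WT mice. In these mice 1 Foxp3 allele carries GFP and is named a knock-out (KO), and the other is wild type. Foxp3, the lineage factor of regulatory T cells, lies on the X chromosome, so such animals also hold regulatory T cells that use the wild-type allele. Treg cells were labelled as Foxp3-positive CD4 T cells and TN cells as naive Foxp3-negative CD4 T cells. The labels give neither the strain nor the sex, and no treatment. Separate mice are not stated either, and a p-value here reflects only the variation between samples, part or all of which may be technical.

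Before a cell copies its DNA, the origin recognition complex with Cdc6 and Cdt1 loads a ring of MCM proteins onto each origin. The kinase Cdc7 together with Cdc45, Mcm10 and the GINS complex turns this ring into an active helicase, and polymerases held by the PCNA clamp then copy the strands. Many of these genes are transcribed at the G1 to S transition under E2F factors, and resting naive T cells divide rarely while a larger share of regulatory T cells in lymphoid tissue is in cycle. In RNA from a sorted population, fewer cells of a type and less RNA per cell cannot be told apart.

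The checks of the labels bear on every comparison below. The Foxp3 probe set read 6.75 to 7.19 in GFPKO arrays, 3.29 to 3.64 in Treg arrays and 3.12 to 3.99 in TN arrays. Its low value in Treg goes against that label, so Treg here stands for the arrays labelled Treg. Xist, the RNA that silences 1 X chromosome in female cells, read 11.07 to 11.85 in GFPKO arrays, 3.49 to 3.96 in Treg arrays and 3.72 to 3.84 in TN arrays, and the Y-linked Eif2s3y ran the other way. Sex and genotype therefore cannot be told apart in the comparisons with GFPKO. Correlations between arrays over all genes were 0.979 to 0.990 within GFPKO, 0.990 to 0.997 within Treg and 0.994 to 0.995 within TN. The difference between 3′ and 5′ actin probe sets, a sign of RNA quality, was 0.45 to 0.83 in GFPKO arrays, 0.44 to 0.61 in Treg arrays and 0.38 to 0.53 in TN arrays. As a guide to dim values, 95% of the values of 23 genes silent in lymphocytes lay at or below 5.55, called the silent range here.

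Promoters of the replication genes are shown because many members moved together in Treg. RefSeq promoters (GRCm38.p6, from 250 bases before to 50 bases after a gene's start) matched 33 of the 39 genes. They were searched on both strands for 4 forms of the E2F motif, TTTCCCGC, TTTGGCGC, TTTCGCGC and TTTGCCGC, and matches on opposite strands may overlap. A match was present in 13 of the 33 members (39.39%), against 704 of 27025 genes with a promoter in the table (2.6%). The motif was present in 7 of the 14 members with a promoter that were higher in Treg than in TN (50%) and in 6 of the 18 other members with an expression value (33.33%), a difference for which no test was made. The shorter motif CCAAT, bound by the factor NF-Y, was present in 18 of 33 members (54.55%) and in 41.06% of all genes. The windows below are 100 bases each, printed 5′ to 3′ on the gene's strand, with the E2F matches in capitals. Mcm6, Mcm5, Cdc6 and Uhrf1 were higher in Treg than in TN, while Mcm7, Orc1 and Pola1 hold a match and were not called in any comparison. The means of Orc1 and of Pola1 lay in the silent range in all 3 groups. Pole2, the only member called lower in Treg than in TN, also holds a match and is not shown. Tk1 and Rrm2, with the largest increases, hold no E2F match in their promoters. Mcm6 holds 3 matches and Mcm5 holds 2, which overlap on opposite strands. A match is a string of letters in this window and not a measured binding site.
Mcm6 (chr1:128359731-128359830, minus strand): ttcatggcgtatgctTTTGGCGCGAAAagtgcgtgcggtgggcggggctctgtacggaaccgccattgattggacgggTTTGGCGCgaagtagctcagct
Mcm5 (chr8:75109312-75109411, plus strand): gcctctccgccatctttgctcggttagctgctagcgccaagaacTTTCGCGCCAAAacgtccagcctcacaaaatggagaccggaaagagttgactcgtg
Cdc6 (chr11:98907967-98908066, plus strand): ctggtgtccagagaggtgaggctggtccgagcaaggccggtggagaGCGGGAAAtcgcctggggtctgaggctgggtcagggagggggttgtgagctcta
Uhrf1 (chr17:56304082-56304181, plus strand): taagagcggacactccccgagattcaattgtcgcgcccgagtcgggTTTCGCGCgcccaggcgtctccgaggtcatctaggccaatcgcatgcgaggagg
Mcm7 (chr5:138171995-138172094, minus strand): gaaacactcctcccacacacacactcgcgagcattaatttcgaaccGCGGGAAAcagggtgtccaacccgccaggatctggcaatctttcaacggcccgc
Orc1 (chr4:108579354-108579453, plus strand): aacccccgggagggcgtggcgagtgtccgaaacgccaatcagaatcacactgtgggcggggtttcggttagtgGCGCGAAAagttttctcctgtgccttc
Pola1 (chrX:93632240-93632339, minus strand): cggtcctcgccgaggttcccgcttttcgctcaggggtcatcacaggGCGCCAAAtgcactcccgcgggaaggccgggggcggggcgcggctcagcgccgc

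Many replication genes were higher in Treg than in TN, led by Tk1, Rrm2, Cdc6 and Uhrf1, with fold changes of 3.81 to 5.26. Calls rest on a limma fit over all genes, with a Benjamini-Hochberg adjusted p under 0.05. In Treg minus TN, 17 of 38 members were higher and 1 was lower, while over all genes 6.54% were called higher and 3.42% lower. The median log2 fold change of the members was 0.30, against 0.03 over all genes, and single members ran between -1.07 and 2.39. All Treg arrays lay above all TN arrays in 17 members (11.7% of all genes) and below them in 2, Cdc7 and Pole2 (7.84% of all genes). The 17 higher members came from 7 of the 8 roles, with 4 of 5 measured in helicase activation, 4 of 8 in the clamp, loader and maturation group, 3 of 4 in nucleotide supply, 3 of 6 in the MCM helicase, and 1 each in licensing, polymerases and chromatin. None of the 3 genes of S phase entry was called by limma, nor did any of the 3 have an unadjusted p under 0.05. In 7 of the 17, TN lay in the silent range, so their fold changes may understate the difference.

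Fewer members were called in the comparisons with GFPKO, and Rrm2, Uhrf1, Cdc6 and Tk1 had the largest changes against TN. The counts are not like for like, since GFPKO minus TN set 3 arrays against 3, and Treg minus TN 5 against 3. In GFPKO minus TN, 5 members were higher (Cdc6, Mcm6, Rrm2, Tk1 and Uhrf1) and 0 lower, while over all genes 2.64% were called higher and 3.02% lower. At an unadjusted p under 0.05 in limma 10 members were higher and 0 lower, against 6.01% and 10.6% of all genes. The members' median was 0.18, against -0.04 over all genes. The arrays did not overlap in 12 members, all higher in GFPKO, while 7.06% of all genes lay wholly above and 11% wholly below. The count of 5 fell to 2 without TN replicate 1 (2.05% of all genes). It fell to 3 without TN replicate 3 (1.99%) or GFPKO replicate 2 (1.95%). The actin difference was highest in GFPKO replicates 1 and 2. With it as a covariate, Rrm2 and Uhrf1 of the 5 remained called and Gins2 and Pole were added. With array weights 14 members were higher and 1 lower, against 11.6% and 16.1% of all genes. GFPKO replicate 2 had a weight of 5.11 and replicates 1 and 3 had 0.25 and 0.31, so GFPKO rested mostly on replicate 2.

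In GFPKO minus Treg, 8 members were lower (Cdc6, Gins1, Gins2, Rfc4, Lig1, Rrm2, Tk1 and Uhrf1) and 1 was higher (Pole2). Over all genes 6.88% were called lower and 2.55% higher, so lower calls outnumbered higher ones across the table too. The members' median was -0.28, against -0.08 over all genes. GFPKO arrays lay wholly below Treg arrays in 14 members (11.1% of all genes) and wholly above in 1, Pole2 (3.31% of all genes). The count of 8 became 5 without GFPKO replicate 1 (4.3% of all genes) or replicate 2 (4.78%), and 13 without GFPKO replicate 3 (13.3%). The single higher gene was joined by Cdc7 without GFPKO replicate 3 (5.54% of all genes). With the actin covariate Pole2, Gins1 and Lig1 were no longer called. Under array weights 4 members were higher and 16 lower, against 12.8% and 24.3% of all genes, and GFPKO again rested mostly on replicate 2. The mean of GFPKO lay between those of Treg and TN in 24 of 38 members (63.2%), against 31.7% of all genes. Among the 17 members higher in Treg than in TN it did so in 16 (94.1%), against 72.8% of all 1190 genes called higher there, a position that the choice by a gap between Treg and TN favours. Of those 17, 8 were called in neither comparison with GFPKO. The comparisons share arrays, and 20 of 38 members were called in none of them.

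**Figure D1:**
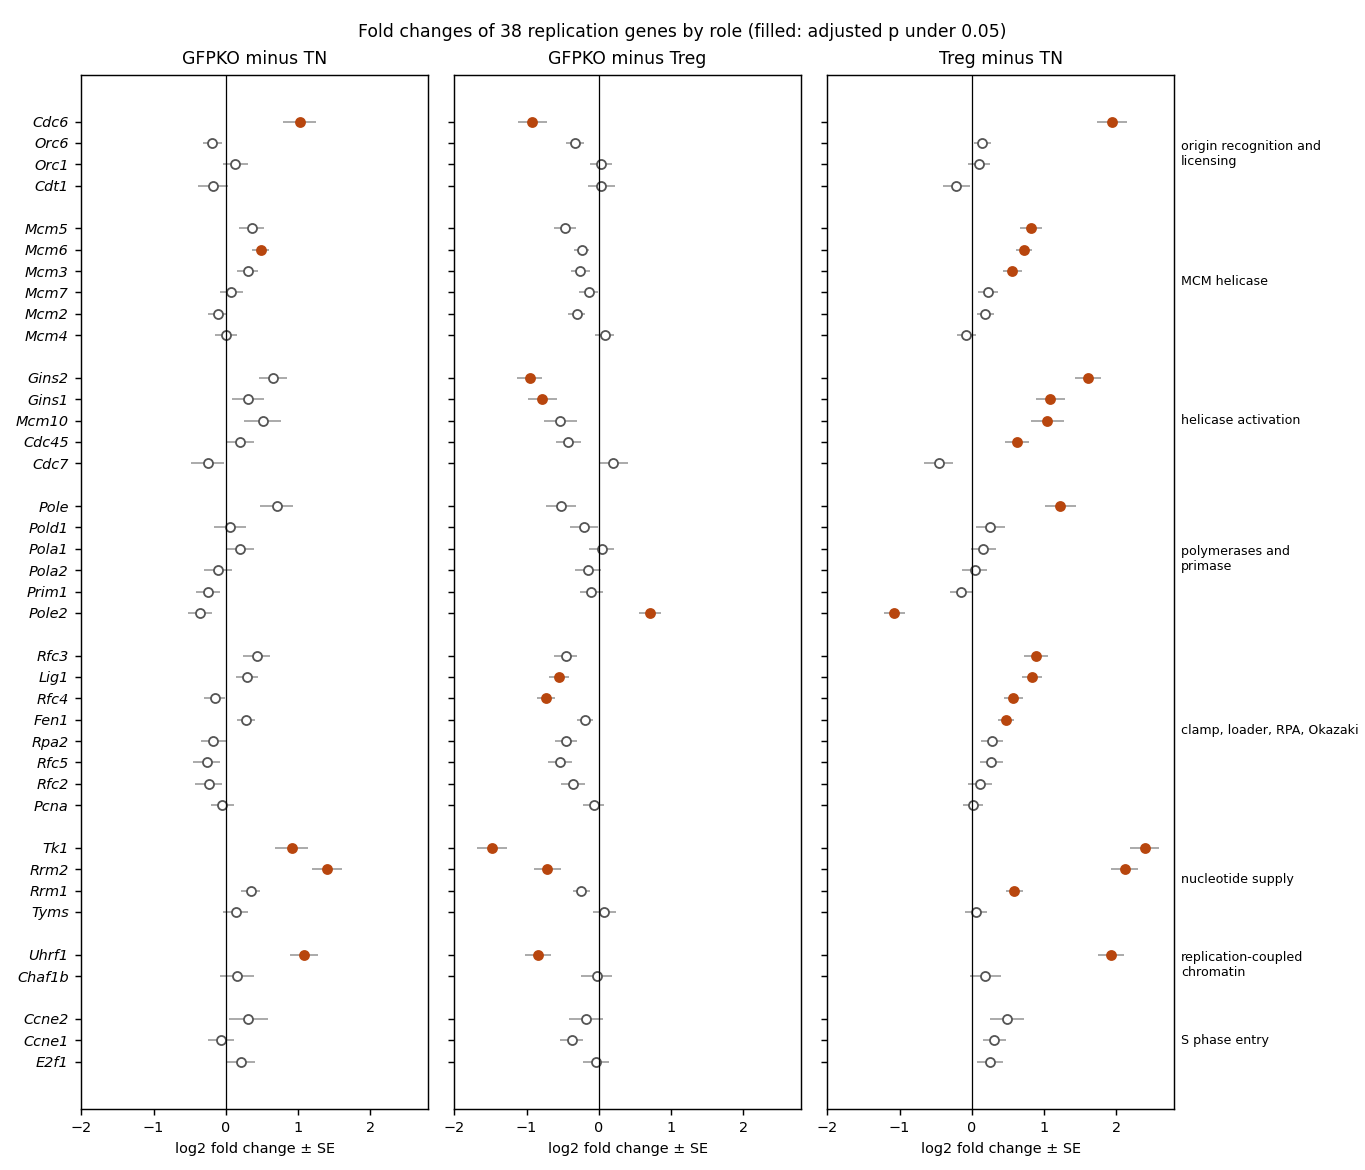
Log2 fold change ± SE (limma) of the 38 measured replication genes, in rows by role, for GFPKO minus TN, GFPKO minus Treg and Treg minus TN. Filled points have an adjusted p under 0.05: 17 members were higher and Pole2 lower in Treg minus TN, and Tk1 and Rrm2 had the largest changes.

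Of the 4 genes that recognise and license origins, Cdc6 was called and the other 3 were not. Cdc6, the ATPase that recruits the MCM ring to the origin recognition complex, read 4.95, 4.22 and 4.41 in GFPKO arrays, 5.36, 5.16, 5.10, 5.95 and 5.68 in Treg arrays, and 3.31, 3.66 and 3.56 in TN arrays. The 3 groups did not overlap, and TN was lowest. Cdc6 was 3.84-fold higher in Treg than in TN (log2 1.94 ± 0.20, limma adjusted p = 7.4e-06) and in GFPKO it exceeded TN by 2.03-fold (log2 1.02 ± 0.23, limma adjusted p = 0.013). It was lower in GFPKO than in Treg (log2 -0.92 ± 0.20, limma adjusted p = 0.0096). Without TN replicate 1 the adjusted p of GFPKO minus TN was 0.077, and without GFPKO replicate 2 that of GFPKO minus Treg was 0.067. The means of Cdc6 lay in the silent range in all 3 groups. Cdt1, which loads the MCM ring with Cdc6, read 9.30 to 10.25 in GFPKO, 9.61 to 10.03 in Treg and 9.93 to 10.23 in TN, and was not called. Orc1 and Orc6, subunits of the origin recognition complex, were not called either, and the means of Orc1 lay in the silent range in all 3 groups. Orc6 was lower in all GFPKO arrays (6.24 to 6.57) than in all Treg arrays (6.65 to 6.80), with a limma adjusted p of 0.10.

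Among the 6 subunits of the MCM helicase, which unwinds DNA ahead of the polymerases, Mcm3, Mcm5 and Mcm6 were higher in Treg than in TN and the other 3 were not called. Mcm6 read 9.74, 9.87 and 9.65 in GFPKO arrays, 9.91, 9.999, 10.09, 9.96 and 9.996 in Treg arrays, and 9.33, 9.33 and 9.16 in TN arrays. Each GFPKO and each Treg array lay above each TN array, and GFPKO lay below Treg. Mcm6 was higher by a log2 of 0.72 ± 0.11 in Treg minus TN (limma adjusted p = 0.00028) and 0.48 ± 0.12 in GFPKO minus TN (limma adjusted p = 0.028). The GFPKO call was lost without any 1 of the TN arrays or without GFPKO replicate 2, with an adjusted p of up to 0.11. Mcm5 averaged 9.23 ± 0.33 in GFPKO (SD, n = 3), 9.69 ± 0.18 in Treg (n = 5) and 8.87 ± 0.10 in TN (n = 3), a log2 difference of 0.82 ± 0.15 between Treg and TN. Mcm3 was higher by 0.56 ± 0.13 in Treg minus TN (limma adjusted p = 0.010), and without TN replicate 3 the adjusted p was 0.086. The 4 further probe sets of Mcm3 moved the same way and were not called. Mcm2, Mcm4 and Mcm7 were not called in any of the 3 comparisons. For Mcm2 all GFPKO arrays lay below all Treg arrays (log2 -0.30 ± 0.12, limma adjusted p = 0.13). Mcm4 read 8.58 to 9.13 in GFPKO, 8.58 to 8.95 in Treg and 8.83 to 8.92 in TN, so its groups overlapped fully.

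Of the 5 genes that turn the loaded ring into a working helicase, 4 were called in Treg minus TN, none in GFPKO minus TN and 2 in GFPKO minus Treg. Gins2 and Gins1 encode subunits of the GINS complex, which joins the MCM ring at the fork. Gins2 read 5.48, 5.26 and 5.86 in GFPKO arrays, 6.14, 6.52, 6.55, 6.64 and 6.63 in Treg arrays, and 4.79, 5.24 and 4.62 in TN arrays. All Treg arrays lay above all others, and all GFPKO arrays above all TN arrays. Gins2 was 3.05-fold higher in Treg than in TN (log2 1.61 ± 0.17, limma adjusted p = 9.7e-06), and the log2 difference of GFPKO minus Treg was -0.96 ± 0.17 (limma adjusted p = 0.0025). The GFPKO difference from TN, 0.65, had a limma adjusted p of 0.067, with both means in the silent range. Gins1 read 5.33, 5.39 and 5.18 in GFPKO arrays, 5.91, 5.91, 6.14, 6.13 and 6.34 in Treg arrays, and 5.56, 5.03 and 4.40 in TN arrays. Treg again stood above both other groups, while GFPKO lay within the spread of TN. The GFPKO and TN means of Gins1 lay in the silent range, so a difference between them may be missed. The difference of Treg minus TN was 1.09 ± 0.20 (limma adjusted p = 0.0016) and that of GFPKO minus Treg -0.78 ± 0.20 (limma adjusted p = 0.022). The second call was lost without Treg replicate 3, Treg replicate 5, GFPKO replicate 1 or GFPKO replicate 2, with an adjusted p of up to 0.058.

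Mcm10, which helps to activate the helicase, read 4.19, 4.92 and 4.13 in GFPKO arrays, 4.30, 4.77, 5.05, 5.24 and 5.36 in Treg arrays, and 4.06, 3.72 and 3.92 in TN arrays. Both Treg and GFPKO arrays lay above all TN arrays and overlapped each other, and the mean of each group was in the silent range. Mcm10 was higher in Treg than in TN by 1.04 ± 0.23 (limma adjusted p = 0.0063). Cdc45, the other factor of the active helicase, was higher in Treg by 0.62 ± 0.17 (limma adjusted p = 0.027). That call was lost without any 1 of the 3 TN arrays or without Treg replicate 3, 4 or 5, with an adjusted p of up to 0.12. The means of Cdc45 lay in the silent range in all 3 groups. Its second probe set, also in that range, gave 0.19 in Treg minus TN (limma adjusted p = 0.46). Cdc7, the kinase that fires origins, went the other way: it read 5.73 to 6.96 in GFPKO, 5.96 to 6.30 in Treg and 6.55 to 6.69 in TN. All TN arrays lay above all Treg arrays, but the log2 difference of -0.45 had a limma adjusted p of 0.22.

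Among polymerases and primase, Pole and Pole2 moved in opposite directions. Pole encodes the catalytic subunit of polymerase epsilon, the leading strand enzyme, and Pole2 its second subunit. Pole read 5.11, 5.28 and 5.81 in GFPKO arrays, 5.74, 5.64, 5.87, 6.08 and 6.31 in Treg arrays, and 4.95, 4.95 and 4.19 in TN arrays. Treg lay above TN in each array, GFPKO overlapped Treg, and the difference of Treg minus TN was 1.23 ± 0.21 (limma adjusted p = 0.00086). The GFPKO and TN means of Pole lay in the silent range. Pole2 read 7.74, 7.81 and 7.30 in GFPKO arrays, 6.73, 6.87, 7.10, 6.86 and 6.94 in Treg arrays, and 8.16, 8.08 and 7.68 in TN arrays. All Treg arrays lay below all GFPKO and TN arrays. Pole2 was lower in Treg than in TN (log2 -1.07 ± 0.15, limma adjusted p = 0.00014) and higher in GFPKO than in Treg by 0.71 ± 0.15 (limma adjusted p = 0.0070, and 0.058 with the actin covariate). Its second probe set, whose means lay in the silent range, gave -0.47 in Treg minus TN. Pola1, Pola2 and Prim1 of the primase complex and Pold1 of polymerase delta were not called. Pola1, which is X-linked, read 5.17 to 5.98 in GFPKO, 5.14 to 5.70 in Treg and 5.18 to 5.42 in TN. Its means lay in the silent range in all 3 groups.

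In the clamp, loader and maturation group, Rfc3, Rfc4, Lig1 and Fen1 were higher in Treg than in TN, and Pcna, Rfc2, Rfc5 and Rpa2 were not called. Rfc3 and Rfc4 are subunits of the loader that places the PCNA ring on DNA. Rfc3 read 6.37, 6.79 and 6.64 in GFPKO arrays, 7.06, 6.83, 7.05, 6.93 and 7.42 in Treg arrays, and 6.46, 6.21 and 5.85 in TN arrays. Treg lay above both other groups, and the difference of Treg minus TN was 0.89 ± 0.16 (limma adjusted p = 0.0018). Rfc4 read 6.66, 6.93 and 6.57 in GFPKO arrays, 7.59, 7.32, 7.38, 7.33 and 7.63 in Treg arrays, and 6.98, 6.75 and 6.90 in TN arrays. Here GFPKO overlapped TN, and Treg stood above both. The log2 difference was -0.73 ± 0.13 in GFPKO minus Treg (limma adjusted p = 0.0020) and 0.58 ± 0.13 in Treg minus TN (limma adjusted p = 0.0074, and 0.058 without TN replicate 2).

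Lig1, the ligase that seals Okazaki fragments, read 7.67, 7.85 and 7.97 in GFPKO arrays, 8.16, 8.30, 8.23, 8.62 and 8.59 in Treg arrays, and 7.58, 7.62 and 7.42 in TN arrays. The 3 groups did not overlap. Lig1 was higher in Treg than in TN by 0.84 ± 0.14 (limma adjusted p = 0.00056), and GFPKO minus Treg was -0.55 ± 0.14 (limma adjusted p = 0.019). The GFPKO difference had an adjusted p of up to 0.084 without GFPKO replicate 1 or 2. Fen1, the flap nuclease, was higher in Treg than in TN by 0.47 ± 0.11 (limma adjusted p = 0.011, and 0.057 without TN replicate 3). Pcna, the clamp, read 11.04 to 11.67 in GFPKO, 11.33 to 11.64 in Treg and 11.39 to 11.49 in TN, so the groups overlapped.

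The largest fold changes were in nucleotide supply. Tk1, the thymidine kinase of the salvage pathway, read 4.76, 5.58 and 5.42 in GFPKO arrays, 6.36, 6.62, 6.51, 6.98 and 7.20 in Treg arrays, and 4.32, 4.44 and 4.26 in TN arrays. The 3 groups did not overlap, with GFPKO in between. Tk1 was 5.26-fold higher in Treg than in TN (log2 2.39 ± 0.20, limma adjusted p = 7.9e-07), and lower in GFPKO than in Treg (log2 -1.48 ± 0.20, limma adjusted p = 0.00028). GFPKO minus TN was 0.92 ± 0.23 (limma adjusted p = 0.027), with both means in the silent range. That call was lost without any 1 of the TN arrays or without GFPKO replicate 2 or 3, with an adjusted p of up to 0.14.

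Rrm2, the small subunit of ribonucleotide reductase, read 7.11, 7.47 and 6.97 in GFPKO arrays, 7.71, 7.72, 7.56, 8.35 and 8.15 in Treg arrays, and 5.92, 5.87 and 5.54 in TN arrays. TN lay far below both other groups. Rrm2 was 4.34-fold higher in Treg than in TN (log2 2.12 ± 0.18, limma adjusted p = 1.0e-06), and in GFPKO it exceeded TN by 2.65-fold (log2 1.41 ± 0.21, limma adjusted p = 0.00046). The difference of GFPKO minus Treg, -0.71 ± 0.18 (limma adjusted p = 0.024), was lost without Treg replicate 4 or 5 or GFPKO replicate 1 or 3, with an adjusted p of up to 0.077. Its other 2 probe sets gave 1.70 and 1.17 in Treg minus TN. In GFPKO minus TN they gave 0.81 and 0.33, and the second was not called. Rrm1, the large subunit, was higher in Treg than in TN by 0.59 ± 0.12 (limma adjusted p = 0.0035). Tyms, thymidylate synthase, lay in the silent range in all 3 groups on each of its 4 probe sets, so no direction is given.

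Uhrf1, which brings the maintenance DNA methyltransferase to newly copied DNA, read 6.79, 7.08 and 6.83 in GFPKO arrays, 7.41, 7.54, 7.59, 8.14 and 8.03 in Treg arrays, and 5.69, 6.08 and 5.67 in TN arrays. The 3 groups did not overlap. Uhrf1 was 3.81-fold higher in Treg than in TN (log2 1.93 ± 0.17, limma adjusted p = 1.4e-06) and in GFPKO it exceeded TN by 2.12-fold (log2 1.09 ± 0.19, limma adjusted p = 0.0026). GFPKO minus Treg was -0.84 ± 0.17 (limma adjusted p = 0.0062). The second probe set of Uhrf1, with a mean in the silent range, gave 0.56 in GFPKO minus TN and was not called there. Chaf1b, a subunit of the chromatin assembly factor, overlapped among the groups and was not called. Of the S phase entry genes, Ccne1, an activating cyclin of Cdk2, read 6.03 to 6.35 in GFPKO, 6.20 to 6.79 in Treg and 6.02 to 6.49 in TN. Ccne2 and the transcription factor E2f1 lay in the silent range in all 3 groups.

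**Figure D2:**
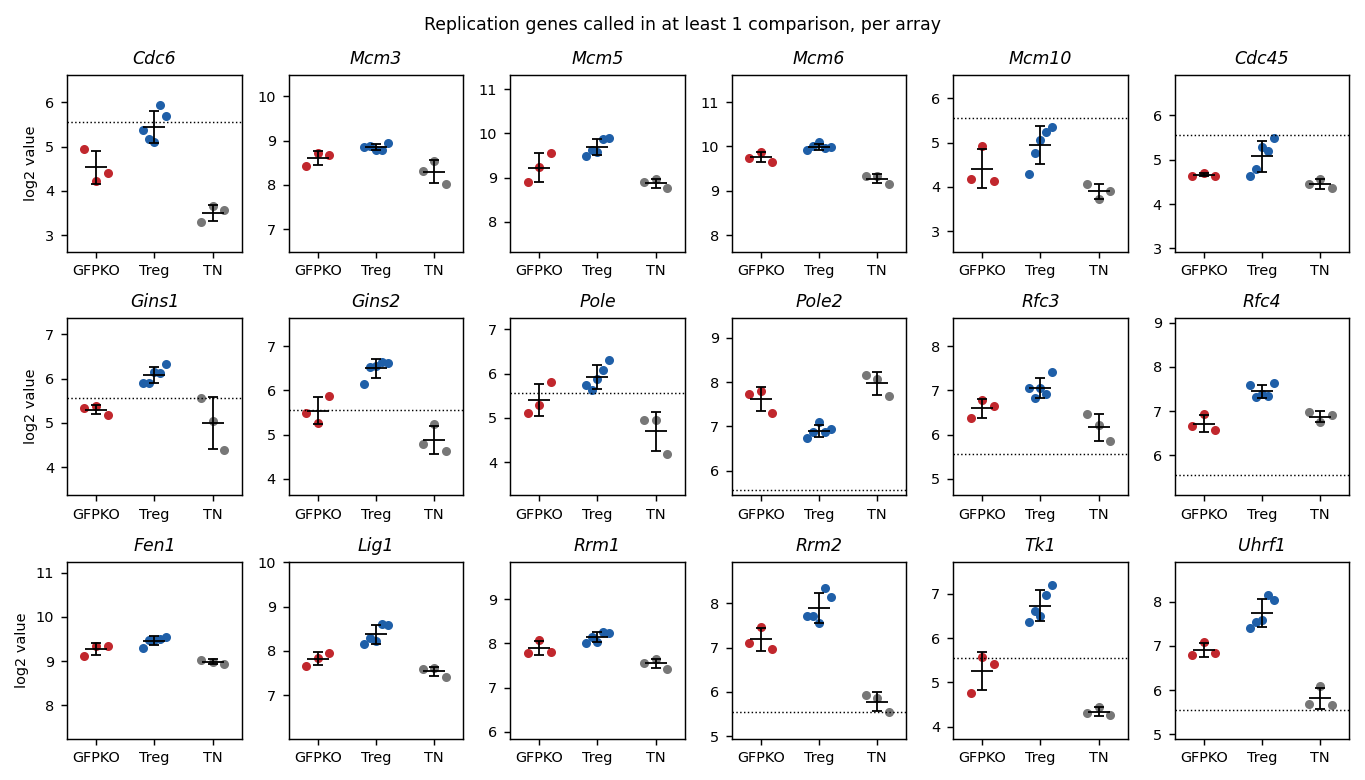
Log2 value of each of the 18 replication genes called in at least 1 comparison, 1 panel per gene, in the 3 GFPKO, 5 Treg and 3 TN arrays; points are arrays, bars are the mean ± SD, and the dotted line is the upper end of the silent range (5.55), drawn where it falls in the panel. Tk1, Rrm2, Cdc6 and Uhrf1 are highest in Treg and lowest in TN, and Pole2 shows the reverse.

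The mean level of the members differed between arrays of a group. The mean level over the 38 members was 6.91, 7.11 and 6.99 in GFPKO arrays, 7.19, 7.25, 7.29, 7.42 and 7.48 in Treg arrays, and 6.84, 6.86 and 6.66 in TN arrays. Treg arrays lay above GFPKO arrays and GFPKO arrays above TN arrays. Within Treg, replicate 5 had the highest value of 19 members and replicate 1 the lowest of 22, and within TN replicate 3 had the lowest of 28. GFPKO replicate 2 was highest in 21 members and replicate 1 lowest in 21. The mitosis and G2 list gave means of 4.99, 4.98 and 4.86 in GFPKO arrays, 5.42, 5.50, 5.48, 5.93 and 5.92 in Treg arrays, and 4.60, 4.76 and 4.53 in TN arrays. Treg replicates 4 and 5 were the highest on both lists. The median over all genes was 4.85, 4.95 and 5.00 in GFPKO arrays and 4.96, 4.97 and 4.94 in TN arrays, below all Treg arrays. Within Treg it was 5.02, 5.09, 5.10, 5.14 and 5.15, again highest in replicates 4 and 5. The 31 further replication genes did not follow, with means of 7.06, 7.02, 7.05, 7.02 and 7.03 in the Treg arrays and replicate 1 the highest. Treg replicates 4 and 5 were also left out together, an alternative chosen after seeing the data. Treg minus TN then had 13 members higher and 1 lower, against 5.08% and 2.26% of all genes. GFPKO minus Treg had 4 lower, against 3.81%. Over the arrays, deviations from the group mean had a median Pearson correlation of 0.25 between 2 members, positive in 467 of 703 pairs, a description of 11 shared arrays. The median SD of the members was 0.29 in GFPKO, 0.19 in Treg and 0.17 in TN, against 0.24, 0.17 and 0.15 over all genes.

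**Figure D3:**
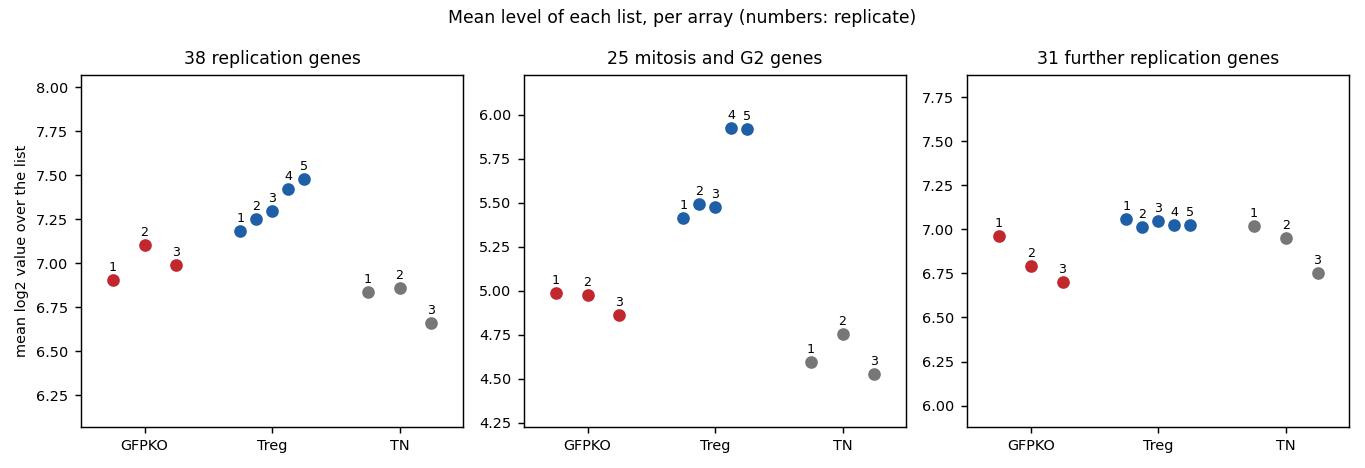
Mean log2 value over the 38 replication genes, 25 mitosis and G2 genes and 31 further replication genes in each GFPKO, Treg and TN array; points are arrays, numbered by replicate, which has no order. Treg arrays lie highest for the replication members (7.19 to 7.48) and for mitosis and G2 genes (5.42 to 5.93), with replicates 4 and 5 at the top; the 31 further replication genes run from 7.02 to 7.06 in Treg, with replicate 1 highest.

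A smaller number of calls fell on further genes of the same machinery. Over all genes 6.54% were called higher and 3.42% lower in Treg minus TN. The shares were 2.64% and 3.02% in GFPKO minus TN, and 2.55% and 6.88% in GFPKO minus Treg. Of 31 replication genes outside the set, 5 were higher and 3 lower in Treg minus TN (median 0.06), 1 was higher and 3 lower in GFPKO minus TN (median -0.13), and 0 were higher and 4 lower in GFPKO minus Treg (median -0.17). Without TN replicate 1 or replicate 2 no lower gene was called in Treg minus TN, and without Treg replicate 4 only 1. Without TN replicate 1 none was called lower in GFPKO minus TN. Without GFPKO replicate 3 the calls were 3 higher in GFPKO minus TN (3.54% of all genes) and 7 lower in GFPKO minus Treg (13.3%). Clspn, Dna2 and Exo1 lay in the silent range in Treg and in TN, so the sizes of their differences are uncertain. Clspn, a checkpoint adaptor at the fork, averaged 5.01 ± 0.28 in Treg (SD, n = 5) and 3.72 ± 0.15 in TN (n = 3), and the origin licensing inhibitor Gmnn 8.02 ± 0.10 in Treg and 7.20 ± 0.22 in TN. Dna2 and Exo1, 2 nucleases, were also higher in Treg than in TN, by 1.20 and 0.92. Gmnn was lower in GFPKO than in Treg (log2 -0.86 ± 0.12), and Rpa1, the large subunit of the single-strand binding protein, was lower in GFPKO than in TN (log2 -0.60 ± 0.13), with a limma adjusted p of 0.059 without TN replicate 1. Of 17 further nucleotide genes, 4 were higher in Treg than in TN, led by Samhd1, which degrades deoxynucleotides (11.11 ± 0.10 in Treg and 10.05 ± 0.10 in TN). In GFPKO minus Treg 5 of these 17 were lower, among them Dctd (-0.86) and Dut (-0.55), and 2 to 3 were when any 1 of TN replicate 2, Treg replicates 2 to 5 or GFPKO replicates 1 and 2 was left out. Of 12 further genes of S phase chromatin, 1 was higher in Treg than in TN, the histone mRNA binding protein Slbp (0.41), whose most variable probe set gave -0.39. The Slbp call was lost without TN replicate 2 or 3 or any 1 Treg array, with a limma adjusted p of up to 0.18.

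Among genes that act before S phase, Cdk6 and E2f2 were higher in both GFPKO and Treg than in TN. Of 21 genes of G1 to S control, 5 were higher and 1 lower in Treg minus TN (median 0.35), where 6.54% and 3.42% of all genes were, and 3 were higher and 2 lower in GFPKO minus TN (median 0.07, and 1 lower without TN replicate 1, TN replicate 2 or GFPKO replicate 2). Cdk6, the G1 kinase, averaged 8.49 ± 0.66 in GFPKO, 7.81 ± 0.15 in Treg and 6.33 ± 0.39 in TN. E2f2 averaged 8.39 ± 0.43 in GFPKO, 8.65 ± 0.23 in Treg and 7.33 ± 0.24 in TN, and Ccna2, the S phase cyclin, was higher in Treg than in TN by 1.51. Ccnd1 was lower than in TN, with a log2 difference of -1.51 in GFPKO and -1.27 in Treg. Of 17 cell cycle brakes, Cdkn2c was higher in both GFPKO (0.64) and Treg (0.85) than in TN, the GFPKO call being lost without TN replicate 2, TN replicate 3 or GFPKO replicate 2 (limma adjusted p of up to 0.12). Btg2 was lower in GFPKO than in TN (-1.78) and than in Treg (-1.44). Of the 25 mitosis and G2 genes, 16 were higher and 1 lower in Treg minus TN (median 1.01), 4 higher and 1 lower in GFPKO minus TN (median 0.32), and 0 higher and 14 lower in GFPKO minus Treg (median -0.67). The 4 higher in GFPKO minus TN became 1 without TN replicate 3 and 2 without TN replicate 2 or GFPKO replicate 2. Mki67, a marker of cycling cells, averaged 5.74 ± 0.38 in GFPKO, 6.02 ± 0.41 in Treg and 4.07 ± 0.23 in TN. In Treg minus TN the mitotic genes Birc5 and Ube2c were higher by 2.18 and 2.10, and in GFPKO minus Treg their log2 differences were -1.51 and -1.47. Of 10 checkpoint and repair genes, Chek1 and Brca1 were higher in Treg than in TN, by 1.05 and 0.77, with all means in the silent range. For Brca1 the limma adjusted p was 0.066 without TN replicate 3.

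Markers of other cells differed between the groups. The 7 measured CD4 T cell identity genes lay above the silent range in all groups. Of 6 CD8 and NK cell genes, 1 lay above it in GFPKO, 2 in Treg and 4 in TN, and the mean of the list was 4.77 to 5.01 in GFPKO arrays, 4.85 to 5.07 in Treg arrays and 6.19 to 6.51 in TN arrays. Klrd1, an NK receptor, averaged 3.96 ± 0.57 in GFPKO, 3.15 ± 0.09 in Treg and 8.83 ± 0.24 in TN. Of 14 myeloid and dendritic genes, 2 lay above the silent range in GFPKO, 2 in Treg and 5 in TN, with list means of 3.81 to 3.93 in GFPKO arrays, 3.94 to 4.25 in Treg arrays and 4.48 to 4.89 in TN arrays. Of 9 B cell and plasma cell genes, 1 lay above the silent range in GFPKO, 2 in Treg and 1 in TN, with list means of 3.72 to 4.06 in GFPKO arrays, 4.21 to 4.36 in Treg arrays and 4.03 to 4.36 in TN arrays. Cd79b of this list averaged 6.01 ± 0.29 in GFPKO, 7.63 ± 0.24 in Treg and 4.36 ± 0.26 in TN. That was the order of the mean level of the members. The list as a whole did not follow Cd79b, with a median log2 fold change of -0.05 in Treg minus TN and -0.21 in GFPKO minus TN. Ms4a1 was lower than in TN in both Treg (-0.87) and GFPKO (-1.22), with all means in the silent range. Cd22 was lower in GFPKO than in Treg (log2 -0.94 ± 0.16) and than in TN (-1.02). Erythroid Gata1 averaged 6.70 ± 0.57 in GFPKO, 7.92 ± 0.18 in Treg and 5.37 ± 0.27 in TN, again in the order of the members. The erythroid list mean, which includes Gata1, was 4.63 to 4.98 in GFPKO, 4.88 to 5.17 in Treg and 4.61 to 4.67 in TN. Gata1 was the only gene called of the 7 measured in that list. Its median log2 fold change was 0.19 in Treg minus TN and -0.08 in GFPKO minus TN. The part of these cells in the replication values was not tested.

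Members with several probe sets allow the values to be compared within a gene. Of 46 further probe sets from 30 members, 38 had the same direction in Treg minus TN as the probe set used. Among the 23 with a mean over all arrays above the silent range it was 21, the exceptions belonging to Mcm4 and Prim1, neither of them called, and among the 23 in the silent range it was 17. Members called in Treg minus TN had 11 further probe sets above the silent range, of which 7 were called the same way and 4, all of Mcm3, were not called. In GFPKO minus TN 2 of 2 such probe sets were called the same way, and in GFPKO minus Treg 2 of 2. Further probe sets with a mean in the silent range were not counted there. Those of Mcm6, Rrm2 and Uhrf1 gave 0.32, 0.33 and 0.56 in GFPKO minus TN and were not called. The probe sets of a gene share its RNA samples and are no independent replicates.

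**Figure D4:**
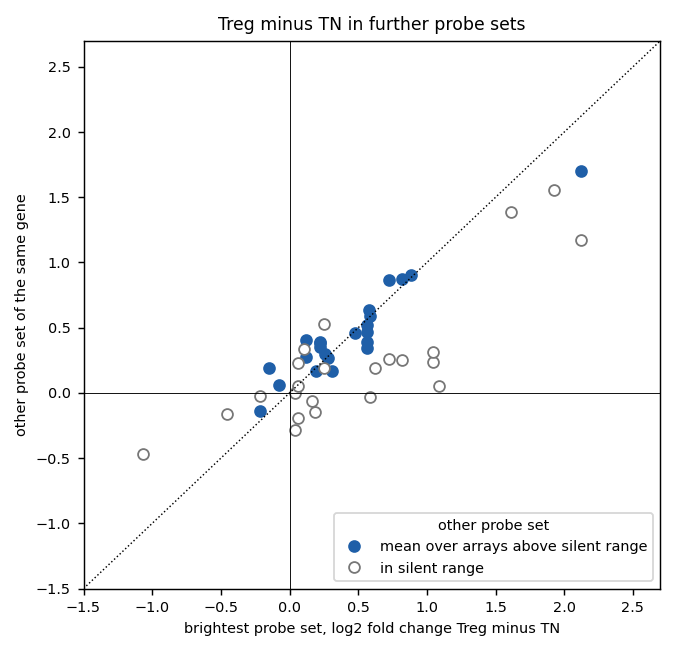
Log2 fold change of Treg minus TN for the further probe sets of 30 members (vertical axis) against that of the probe set used (horizontal axis), with filled points for a mean over all arrays above the silent range, open points in it, and a dotted line of equality. Of the 23 further probe sets above the silent range, 21 have the same direction as the probe set used.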

How the data were processed

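Expression was measured in 11 samples on 1 Affymetrix array each. The authors deposited log2 values made with RMA, per the submitters' processing notes. Its version was not given in the sources used here, and the log2 scale was inferred from their range of 1.54 to 14.65. Depth is not defined for arrays, and their number limits the precision. Probe sets with 1 gene symbol (34945 of 45101) gave 18193 genes, each taken from its brightest probe set on average. No filter on dim values was applied.

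Group means were estimated jointly from the 11 arrays with limma 3.58.1 (R 4.3.3), with empirical Bayes moderation, two-sided tests and Benjamini-Hochberg adjustment over all genes. The fit was tested on simulated data. Alternatives left out arrays in turn, used other probe set rules, array weights, an actin covariate, only the groups compared, a fold minimum of 1.5, a dim filter, or a replicate block.

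Members and lists were chosen with earlier results of these data known. The rule for naming allowed every member, with each array's values for up to 10 called members per comparison and for any that went against the majority, and up to 4 called genes per companion list and comparison. The replicate numbers were not found to pair samples. Promoters of Gins1, Gins2, Mcm4, Pole, Rfc2 and Ccne2 were not analysed here.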

Additional observations from a re-analysis of the deposited data

Results flagged for a closer look

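Dixon's test was applied to each of the 38 members within the 5 Treg arrays, where chance alone marks about 1 in 20 groups, and 2 members had a value far from the others, both in Treg replicate 1. Orc1 read 4.47 there, against 4.90 to 5.03 in the other Treg arrays, with a gap of 0.767 of the whole range where the critical value is 0.71. Gins2 read 6.14 there, against 6.52 to 6.64 in the other Treg arrays, with a gap of 0.763 of the range.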

How the results depend on the processing

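Of 699 alternative values of the 32 called member differences, 627 kept direction and call, 72 kept direction without the call and 0 reversed; 21 of the 32 kept their call whichever single array was left out. With array weights the members called higher and lower were 14 and 1 in GFPKO minus TN, 4 and 16 in GFPKO minus Treg, and 17 and 2 in Treg minus TN, against 11.6% and 16.1%, 12.8% and 24.3%, and 10.1% and 7.62% of all genes. These weights were 5.11 for GFPKO replicate 2, and 0.25 and 0.31 for GFPKO replicates 1 and 3. With the actin difference as a covariate 0 were higher in GFPKO minus Treg (1.25% of all genes). With only the 2 groups compared, 3 were higher in GFPKO minus TN (1.71% of all genes) and 2 lower in Treg minus TN (5.55%). With the replicate block, GFPKO minus Treg had 4 lower (4.13% of all genes). With dim genes left out, GFPKO minus TN had 4 higher and 0 lower, against 5.03% and 6.36% of the genes kept. GFPKO minus Treg then had 1 higher and 8 lower, against 5.38% and 13.0%. The replicate numbers gave same-number correlations of -0.22 to 0.51, and 3 of 9 arrays correlated best with their own number. The numbers were therefore not taken to pair samples. Leaving out 1 array gave 2 to 5 members higher and 0 lower in GFPKO minus TN, against 1.95% to 3.54% and 1.49% to 6.73% of all genes. In GFPKO minus Treg it gave 1 to 2 higher and 5 to 13 lower, against 1.55% to 5.54% and 4.3% to 13.3%. In Treg minus TN it gave 14 to 17 higher and 1 to 2 lower, against 4.75% to 8.05% and 2.13% to 5.13%. Without GFPKO replicates 1 and 2 together, chosen after seeing the data, 1 GFPKO array is left and its spread is taken from the other groups. No counts are given for that fit. Without Treg replicates 4 and 5 together GFPKO minus Treg had 4 lower (3.81% of all genes). Slbp reversed to -0.39 in Treg minus TN with its most variable probe set. The cause of these shifts was not tested. Signal near the silent range limits the fold changes of the dimmest members.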
